A study of Mus musculus with 12 samples.

Results

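The cyclins of the G1 phase, the kinases they activate, and Rb1 and E2f1 were described in neural stem/progenitor cells (NSPCs) with and without the m6A reader Ythdf2. The 10 genes were *Ccnd1*, *Ccnd2*, *Ccnd3*, *Ccne1*, *Ccne2*, *Cdk2*, *Cdk4*, *Cdk6*, *E2f1* and *Rb1*. They were taken by symbol from a table of 24525 genes, and all 10 were among the 13112 genes that passed the filter on low counts and were tested. The libraries are the inputs of an m6A-IP experiment, made from mRNA fragments that had not met the antibody, 3 from wild-type and 3 from *Ythdf2*-/- cells. Both groups came from C57BL/6 forebrain at E14.5 and were grown at passage 1 as neurospheres, floating spheres of NSPCs, in medium with EGF and bFGF. The knockout allele has lost the 5′ UTR and exon 1 of *Ythdf2* in every tissue, through LoxP sites and a ubiquitous Cre, and the embryos came from crosses of *Ythdf2*+/- mice. How many embryos went into each culture is not given in the sources used here. The question asked of the comparison was whether the mRNA of these genes differed between genotypes in cells for which the study measured proliferation.

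D-type cyclins are made in response to mitogens and activate Cdk4 and Cdk6, which phosphorylate the retinoblastoma protein Rb1. Phosphorylated Rb1 releases E2f transcription factors, among them E2f1, which switch on the E-type cyclins, their own genes and the genes of DNA replication. Cyclin E then activates Cdk2, which completes the phosphorylation of Rb1 and takes the cell into S phase. In the embryonic forebrain the length of G1 is known to change as progenitors move towards differentiation, and *Ccnd1* and *Ccnd2* are the D-type cyclins best known there.

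The libraries held 11029827 to 13185778 counted reads, and values are given as CPM, read counts brought to a common library size with TMM factors of 0.988 to 1.03. *Ythdf2* itself, on the minus strand of chr4:132184916-132212256, stood at 71.9, 73.3 and 91.4 CPM in wild-type replicates 1, 2 and 3 and at 11.7, 14.7 and 11.1 CPM in *Ythdf2*-/- replicates 1, 2 and 3, so the genotypes did not overlap. Wild-type replicate 3 stood apart from the other libraries. Its mean Spearman correlation with them over the 13112 genes tested was 0.8997. The other 5 had means of 0.962 to 0.970, each taken with wild-type replicate 3 included. Progenitor markers were present in all libraries, and in wild-type replicate 3 they were divided, with 8 of 11 highest and 3 lowest. *Sox2* stood at 551 CPM there and at 316 to 426 CPM in the others. *Nes*, the intermediate filament of neural progenitors, stood at 264 CPM there, below the 725 to 1212 CPM of the others. The summed level of 6 astroglial markers was 7334 CPM in that library and 1270 to 2999 CPM elsewhere, and that of 11 oligodendrocyte lineage markers was 4424 CPM against 1740 to 2169 CPM. Of the tested markers, 4 of 6 astroglial, 6 of 9 oligodendrocyte lineage, 6 of 9 neuronal and 8 of 11 progenitor markers were highest there, as were 33.8% of all genes tested. Microglial markers summed to 1.13 to 1.55 CPM, with *Ptprc* and *C1qa* at 0 in all libraries, and endothelial markers summed to 1.01 to 3.51 CPM, with *Cldn5* at 0. Mesenchymal markers summed to 32.4 CPM in wild-type replicate 3, almost all of it *Pdgfrb*, and to 0.889 to 4.35 CPM elsewhere. In bulk RNA, fewer cells of a type and less RNA per cell cannot be told apart. The comparisons of the 10 genes are therefore given with all 6 libraries and without wild-type replicate 3.

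*Ccnd1*, which encodes cyclin D1, lies on the minus strand of chr7:144929931-144939831 in GRCm38 (mm10). It had 1986 and 1685 CPM in wild-type replicates 1 and 2 and 27.9 CPM in wild-type replicate 3, which is 305 counted reads against 23205 and 22073. The *Ythdf2*-/- replicates held 1008, 679 and 1113 CPM. All 3 knockout libraries thus lay below wild-type replicates 1 and 2 and far above wild-type replicate 3. The wild-type mean of 1233 ± 1054 CPM (SD, n = 3) had a spread almost as large as itself, against 933 ± 226 CPM (SD, n = 3) in *Ythdf2*-/-. Of its exons, 818 bases overlap *Oraov1* on the opposite strand, which stood at 12.8 to 17.7 CPM. With all 6 libraries the log2 fold change, *Ythdf2*-/- over wild type here and throughout, was -0.40 with a 95% interval of -3.23 to 2.43. Without wild-type replicate 3 it was -0.98 with an interval of -1.54 to -0.41, and the knockout mean was 50.9% of the mean of wild-type replicates 1 and 2. The adjusted p from the quasi-likelihood test of edgeR was 0.999 in the first fit and 0.182 in the second.

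*Ccnd2*, which encodes cyclin D2, a D-type cyclin that cortical progenitors also use, lies on the minus strand of chr6:127125162-127152188. Its levels were 728, 689 and 55.3 CPM in wild type and 533, 339 and 1072 CPM in *Ythdf2*-/-. *Ythdf2*-/- replicate 3 held more *Ccnd2* than any wild-type library, while replicates 1 and 2 held less than wild-type replicates 1 and 2. The knockout libraries alone spanned 3.16-fold. Its log2 fold change was 0.40 with 6 libraries (standard error 0.897) and -0.13 without wild-type replicate 3 (standard error 0.455), with a 95% interval of -1.24 to 0.98 in the second fit.

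*Ccnd3*, the third D-type cyclin, lies on chr17:47505051-47599689 and was the steadiest of the 10 genes. It stood at 40.6, 41.8 and 33.6 CPM in wild type and at 38.7, 36.6 and 38.9 CPM in *Ythdf2*-/-. Wild-type replicate 3 held 81.5% of the mean of replicates 1 and 2. Of its exons, 359 bases overlap *Bysl* on the opposite strand, at 26.7 to 52.5 CPM. Between genotypes the log2 fold change was -0.02 with 6 libraries, with a 95% interval of -0.36 to 0.31, and -0.11 without wild-type replicate 3, with an interval of -0.35 to 0.12.

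**Figure D1:**
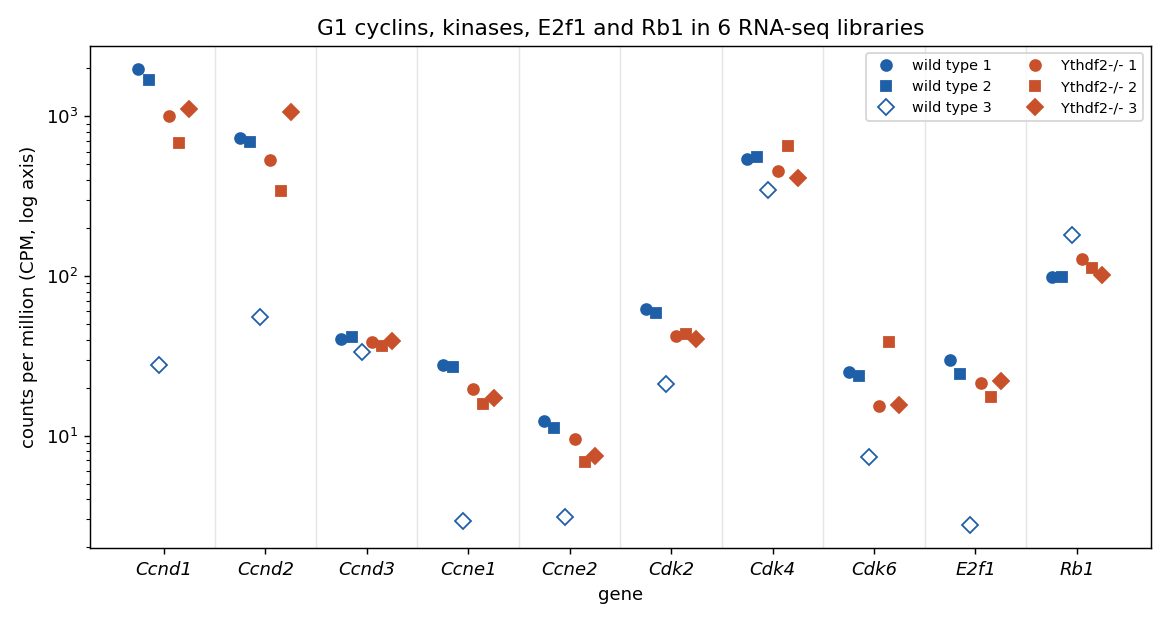
Level of the 10 genes (horizontal axis) in CPM on a log axis, 1 point for each of the 6 libraries. Wild-type replicate 3 (open diamonds) lies below the other 5 libraries for 9 genes and above them for Rb1, with Ccnd1 at 27.9 CPM against 679 to 1986 CPM elsewhere.

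Per kilobase of exon (RPKM, CPM divided by the exon length of the gene in RefSeq), the 3 D-type cyclins can be set beside each other. Their summed level was 671 and 585 RPKM in wild-type replicates 1 and 2 and 31.8 RPKM in wild-type replicate 3. In *Ythdf2*-/- replicates 1, 2 and 3 the sum was 377, 255 and 498 RPKM. *Ccnd1* made up 78.5% and 76.4% of it in wild-type replicates 1 and 2, but 71.0%, 70.7% and 59.3% in the knockout libraries. The share of *Ccnd2* was correspondingly 18.8% and 20.4% against 24.5%, 23.0% and 37.3%. Among these 5 libraries the groups did not overlap in the sum or in the share of *Ccnd1*, which was not tested, and 38.9% of all genes tested did not overlap there either. The sum was mostly *Ccnd1*, while *Ccnd2* alone overlapped between the groups. In wild-type replicate 3 *Ccnd3* was the leading D-type cyclin with 46.7% of the sum, against 2.67% to 6.34% in the others, and with that library included the genotypes overlapped in both measures.

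**Figure D2:**
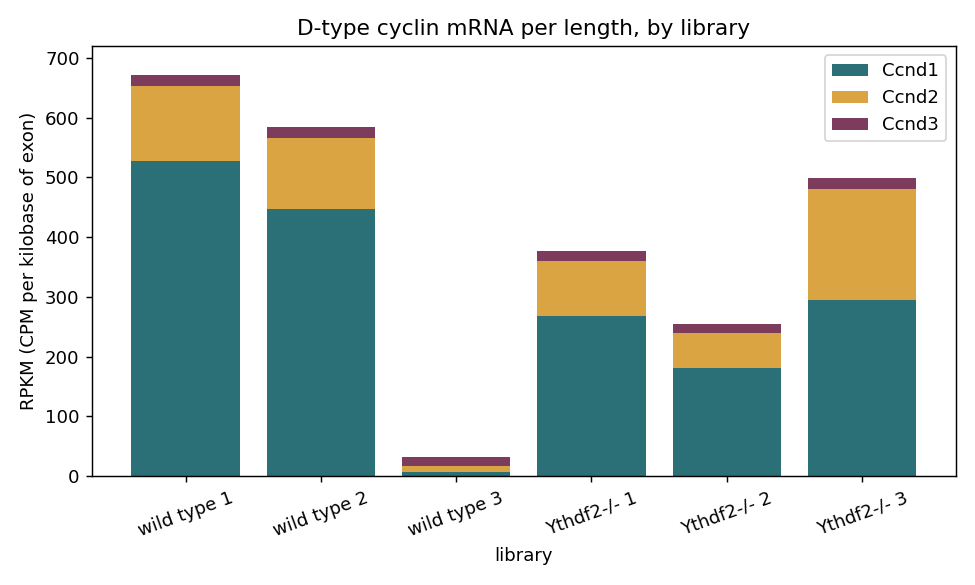
Summed level of the D-type cyclins in RPKM (vertical axis, from 0) for each of the 6 libraries, with the bar divided into Ccnd1, Ccnd2 and Ccnd3. The sums were 671, 585 and 31.8 RPKM in wild type and 377, 255 and 498 RPKM in Ythdf2-/-, and the Ccnd2 part was largest in Ythdf2-/- replicate 3.

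*Cdk4*, a kinase that the D-type cyclins activate, lies on chr10:127063535-127067288. It stood at 541, 554 and 348 CPM in wild type and at 453, 653 and 409 CPM in *Ythdf2*-/-. The knockout libraries lay on both sides of wild-type replicates 1 and 2. Its log2 fold change was 0.07 with 6 libraries and -0.12 without wild-type replicate 3, where its 95% interval ran from -0.63 to 0.40.

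*Cdk6*, the second D-cyclin kinase, lies on chr5:3341004-3531008 and was scarce, with 0.259% to 0.722% of the summed RPKM of both kinases. Its levels were 25.2, 23.6 and 7.32 CPM in wild type and 15.4, 38.6 and 15.6 CPM in *Ythdf2*-/-. *Ythdf2*-/- replicate 2, which held the least *Ccnd1* and *Ccnd2* of the knockout libraries, held the most *Cdk4* and *Cdk6*. The log2 fold change of *Cdk6* was 0.31 with 6 libraries and -0.07 without wild-type replicate 3, with a 95% interval of -1.11 to 0.98 in the second fit.

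*Ccne1*, an E-type cyclin that activates Cdk2, lies on the minus strand of chr7:38097984-38107490. It stood at 27.6, 27.0 and 2.93 CPM in wild type and at 19.7, 15.8 and 17.2 CPM in *Ythdf2*-/-. Every knockout library lay below wild-type replicates 1 and 2, at 57.8% to 72.2% of their mean, and above wild-type replicate 3. The log2 fold change was -0.13 with 6 libraries, with a 95% interval of -1.87 to 1.61. In the 5 libraries without wild-type replicate 3 it was -0.64, with an interval of -0.98 to -0.29 and an adjusted p of 0.171 from edgeR.

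*Ccne2*, its paralog, lies on chr4:11190433-11204779. Its levels were 12.4, 11.1 and 3.11 CPM in wild type and 9.55, 6.81 and 7.48 CPM in *Ythdf2*-/-, in the same arrangement as *Ccne1*. The log2 fold change was -0.16 with 6 libraries and -0.57 without wild-type replicate 3 (standard error 0.210). Of its 3220 bases of exon, 1734 overlap exons of *Ints8* on the opposite strand. *Ints8* stood at 57.4 to 67.0 CPM, and since the strand setting of the counting is not given in the sources used here, the count of *Ccne2* is uncertain. *Ccne1* made up 77.2% to 80.0% of the summed E-type cyclin RPKM in 5 libraries and 60.8% in wild-type replicate 3, so the balance of the pair differed little between genotypes outside that library.

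*Cdk2*, the kinase of the E-type cyclins, lies on the minus strand of chr10:128697938-128705051. It had 61.9, 58.9 and 21.1 CPM in wild type and 41.9, 43.1 and 40.1 CPM in *Ythdf2*-/-. The knockout libraries were close together, at 66.3% to 71.4% of the mean of wild-type replicates 1 and 2. Its log2 fold change was -0.18 with 6 libraries, with a 95% interval of -1.13 to 0.76. In the 5 libraries without wild-type replicate 3 it was -0.53, with an interval of -0.76 to -0.31 and an adjusted p of 0.151 from edgeR, the smallest of the 10 genes.

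*E2f1*, an activator of S phase genes that Rb1 holds in check, lies on the minus strand of chr2:154559400-154569892. It stood at 29.7, 24.3 and 2.75 CPM in wild type and at 21.5, 17.5 and 21.9 CPM in *Ythdf2*-/-. The knockout libraries again lay between wild-type replicates 1 and 2 above and wild-type replicate 3 below. For *E2f1* the log2 fold change was 0.10 with 6 libraries (standard error 0.735) and -0.41 without wild-type replicate 3 (standard error 0.162).

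*Rb1*, the pocket protein that binds E2f1 and restrains it, lies on the minus strand of chr14:73192858-73325951 and ran the other way. Its levels were 99.0, 98.0 and 180.2 CPM in wild type and 128.8, 112.7 and 101.1 CPM in *Ythdf2*-/-. It was the one gene of the 10 that was highest in wild-type replicate 3. All 3 knockout libraries lay above wild-type replicates 1 and 2, at 130.7%, 114.4% and 102.7% of their mean. The log2 fold change was -0.14 with 6 libraries and 0.21 without wild-type replicate 3, with a 95% interval of -0.08 to 0.51.

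With all 6 libraries, none of the 10 genes was called by edgeR at an adjusted p under 0.05, and 0 of the 13112 genes tested were (0%). *Ythdf2* itself, with a log2 fold change of -2.66, was not called in this fit either (edgeR adjusted p = 0.0547). Without wild-type replicate 3 its adjusted p from edgeR was 0.0203. At an unadjusted p under 0.05 the counts were 0 of 10 and 476 of 13112 (3.63%). DESeq2 called 31 of 13067 genes (0.237%), none of them among the 10. The genotypes overlapped in all 10 genes, while they did not in 10.2% of the genes tested (5.24% higher and 4.92% lower in the knockout). With weights for sample quality, limma-voom called 4.82% of the genes and none of the 10. The 95% intervals of *Ccnd1*, *Ccnd2*, *Ccne1*, *Ccne2*, *E2f1* and *Cdk6* reached beyond 1 log2 unit in both directions, so a difference of that size either way was not detectable for these genes.

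Without wild-type replicate 3, 9 of the 10 log2 fold changes were below 0, as were 6411 of the 13283 genes tested. The median of the 10 was -0.27, against 0.01 over all genes tested. *Ccnd1*, *Ccne1*, *Ccne2*, *Cdk2* and *E2f1* had an unadjusted p under 0.05 in the quasi-likelihood test, that is, 5 of 10 in the lower direction where 8.58% of 13283 genes did and 16.6% in either direction. None of the 10 passed an adjusted p under 0.05, which 2 genes did (0.0151%). In *Ccnd1*, *Ccnd3*, *Ccne1*, *Ccne2*, *Cdk2* and *E2f1* all knockout libraries lay below wild-type replicates 1 and 2, as in 20.1% of the genes tested, and *Rb1* was the one gene with all of them above, as in 18.8% of the genes tested. DESeq2 on the same 5 libraries, a fit chosen after seeing the data, called *Ccnd1* (-0.97, adjusted p = 0.00654), *Cdk2* (-0.53, adjusted p = 0.0147) and *Ccne1* (-0.63, adjusted p = 0.0493), where it called 1.63% of 12248 genes lower. For *Ccnd1*, *Cdk2* and *Ccne1* the adjusted p thus fell on different sides of the threshold with edgeR and DESeq2.

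Cell type markers were also compared between genotypes in these 5 libraries. At an unadjusted p under 0.05, 1 of 6 astroglial, 1 of 9 neuronal and 1 of 11 progenitor markers were lower in *Ythdf2*-/-, and 2 progenitor markers and 1 of 9 oligodendrocyte lineage markers were higher, where 8.58% of all genes were lower and 8.03% higher at that p. None of them passed an adjusted p under 0.05. *Gfap*, the filament of astroglia, stood at 437 and 625 CPM in wild-type replicates 1 and 2 and at 127, 87.7 and 5.55 CPM in *Ythdf2*-/-. The others were *Stmn2* (-2.33) and *Prom1* (-1.60), both lower, and *Msi1* (0.61), *Cspg4* (0.41) and *Sox2* (0.30), all higher. The summed levels overlapped for the astroglial list, at 1902 and 2308 CPM against 1270 to 2999 CPM, and for the progenitor list, at 6648 and 6230 CPM against 5033 to 6712 CPM. The neuronal sum was 1273 and 1294 CPM against 1273 to 1480 CPM, and the oligodendrocyte lineage sum was 1765 and 1740 CPM against 1861 to 2169 CPM. Whether these marker differences have a part in the levels of the G1 genes was not tested.

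**Figure D3:**
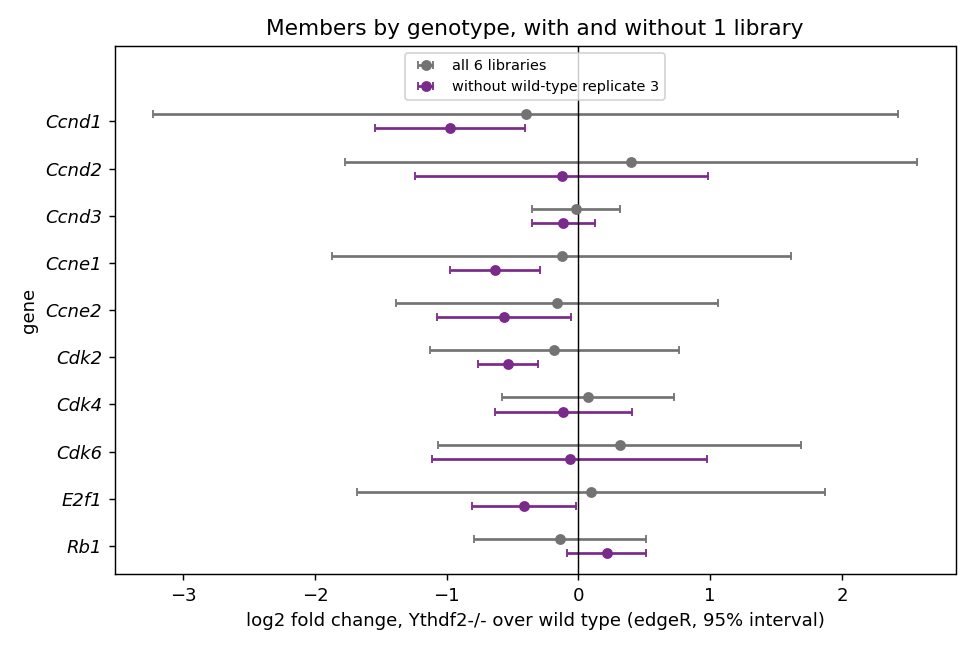
Log2 fold change of each gene, Ythdf2-/- over wild type, from edgeR (points) with 95% intervals (bars), for all 6 libraries (grey) and without wild-type replicate 3 (purple). Without that library the intervals of Ccnd1, Ccne1, Ccne2, Cdk2 and E2f1 lie below 0, while with it every interval spans 0.

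Reads on 4 Y-linked genes also divided the libraries, with 1111 and 1638 in wild-type replicates 1 and 2, 2147 in *Ythdf2*-/- replicate 3, and 0 or 1 in the other 3. In *Ythdf2*-/- replicate 3, which shares these reads with wild-type replicates 1 and 2, *Ccnd1* stood at 60.6% of their mean, *Ccne1* at 63.1%, *Ccne2* at 63.5%, *Cdk2* at 66.3% and *E2f1* at 81.0%. A level below 100% was already given for these 5 genes, since all knockout libraries lay below wild-type replicates 1 and 2 there, so these shares say nothing further about the Y-linked reads. Of the other 5, *Cdk6* stood at 64.0%, *Cdk4* at 74.8%, *Ccnd3* at 94.5%, *Rb1* at 102.7% and *Ccnd2* at 151.4%. A term for these reads was also added to the fit of the 5 libraries, again chosen after seeing the data. Both wild-type libraries there hold these reads, but of the knockouts only *Ythdf2*-/- replicate 3 does. The genotype term thus compares that 1 library with wild-type replicates 1 and 2, and its values repeat the shares above. The log2 fold changes were -0.72 for *Ccnd1*, -0.66 for *Ccne1* and -0.59 for *Cdk2*, and that of *Ccnd2* was 0.60. *Ccnd1*, *Ccne1* and *Cdk2* had an unadjusted p under 0.05 in that fit, 3 of 10 in the lower direction where 6.82% of all genes did. *Ccne2* was at -0.65 with a standard error of 0.298, and *E2f1* at -0.30 with a standard error of 0.218. With 1 knockout library behind the genotype term, neither the p-values nor the count of 3 are further evidence of a difference. With all 6 libraries and the same term the direction turned for several genes, with *Ccnd1* at 2.06 (standard error 1.87), *Ccne1* at 0.83 (standard error 0.813), *Ccne2* at 0.31 (standard error 0.529) and *Cdk2* at 0.20 (standard error 0.383). *Ccnd2* stood at 1.78 (standard error 0.625) in that fit and was the one gene of the 10 with an unadjusted p under 0.05, where 5.23% of all genes passed it in the higher direction. Its adjusted p from edgeR was 0.402.

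Ordered by level per length, wild-type replicates 1 and 2 ran from *Ccnd1* (487 RPKM) through *Cdk4* (385), *Ccnd2* (123), *Cdk2* (24.8), *Rb1* (21.2), *Ccnd3* (18.2), *Ccne1* (14.0), *E2f1* (8.72) and *Ccne2* (3.66) to *Cdk6* (2.11). No neighbours in this order overlapped between these 2 libraries. In *Ythdf2*-/- the order began with *Cdk4* at 356 ± 91.6 RPKM (SD, n = 3), *Ccnd1* at 248 ± 60.0 RPKM (SD, n = 3) and *Ccnd2* at 112 ± 65.8 RPKM (SD, n = 3). *Cdk4* and *Ccnd1* overlapped there, as did *Ccnd1* and *Ccnd2*, *Cdk2* and *Ccnd3*, and *Ccne2* and *Cdk6*. With the gene lengths of the deposited tables the order and overlaps in *Ythdf2*-/- changed, since *Cdk4* and *Ccnd1* no longer overlapped, *Ccnd3* came above *Cdk2*, and *Ccne1* and *E2f1* overlapped. In wild-type replicate 3 *Cdk4* led with 245 RPKM and *Rb1* followed with 38.7 RPKM, and *Ccnd1* came below *Cdk2* at 7.41 RPKM.

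The distance of wild-type replicate 3 from the other libraries was unequal across the genes. As a share of the mean of wild-type replicates 1 and 2, its level was 1.52% for *Ccnd1*, 7.81% for *Ccnd2*, 10.2% for *E2f1* and 10.7% for *Ccne1*. For the rest it was 26.4% for *Ccne2*, 30.0% for *Cdk6*, 34.9% for *Cdk2*, 63.5% for *Cdk4*, 81.5% for *Ccnd3* and 182.9% for *Rb1*. In this library 9 of the 10 genes were at their lowest, as were 34.4% of all genes tested. In 4 of the 10, *Ccnd1*, *Ccnd2*, *Ccne1* and *E2f1*, it lay at least 5-fold below every other library, which held for 2.63% of all genes. The lower cyclin levels went together with the higher summed astroglial and oligodendrocyte lineage markers of this library and with a neuronal sum of 2118 CPM against 1273 to 1480 CPM elsewhere. The part of cells with these markers in the result was not tested.

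The other genes of the pathway were taken in 7 lists. In no list did a gene pass an adjusted p under 0.05 with edgeR, in either fit. The E2F target replication genes, the helicase subunits, polymerases and nucleotide enzymes of S phase, were counted first. All 20 had, without wild-type replicate 3, a log2 fold change below 0, between -0.70 and -0.35, with a median of -0.52, and 18 had an unadjusted p under 0.05, where 6411 of all 13283 genes tested were below 0 and 8.58% passed that p in the lower direction. In 19 of the 20 the knockout libraries all lay below wild-type replicates 1 and 2, against 20.1% of all genes. *Rrm1*, the large subunit of ribonucleotide reductase, stood at 416, 387 and 73.9 CPM in wild type and at 279, 313 and 303 CPM in *Ythdf2*-/-. *Mcm4*, a subunit of the replicative helicase, stood at 183, 164 and 29.8 CPM and at 113, 96.3 and 121.9 CPM. *Cdc45*, which activates that helicase, stood at 51.5, 49.7 and 2.47 CPM and at 42.3, 43.2 and 33.1 CPM. Like *Ccne1* and *Cdk2*, all 3 lay between wild-type replicates 1 and 2 and wild-type replicate 3 in the knockout libraries. With 6 libraries the median of the list was -0.08, with 7 genes higher and 13 lower, against a median of -0.01 over all genes.

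Of 11 other E2f, DP and pocket proteins, 10 were lower without wild-type replicate 3 (median -0.38) and 6 of these had an unadjusted p under 0.05, against 8.58% of all genes in that direction, while with 6 libraries 5 of 11 were lower (median 0.05). *Tfdp1*, the DP partner of E2f proteins, stood at 194.8, 183 and 87.9 CPM in wild type and at 132, 124 and 133 CPM in *Ythdf2*-/-. *E2f8*, a repressor of E2F targets, stood at 45.5, 36.4 and 5.95 CPM and at 31.6, 44.3 and 35.1 CPM, with the genotypes overlapping in either fit. Of 9 S, G2 and M phase cyclins, Cdk1 and Cdc25 phosphatases, 7 were lower without wild-type replicate 3 (median -0.34), as were 6411 of all 13283 genes. Of these 7, 3 had an unadjusted p under 0.05, against 8.58% of all genes in that direction. With 6 libraries 8 of the 9 were higher (median 0.23), as were 6304 of all 13112 genes. *Ccna2*, the S phase cyclin, stood at 250.2, 228 and 3.29 CPM in wild type and at 159, 204 and 159 CPM in *Ythdf2*-/-. *Cdc25a*, the phosphatase that activates Cdk2, stood at 41.8, 38.9 and 15.7 CPM and at 31.5, 30.4 and 29.4 CPM. *Ccna1* was near the detection limit, at 0 to 3.11 CPM. The genes of this list were lowest in wild-type replicate 3, at a median of 1.62% of the median of the other libraries, against 19.6% for the E2F targets, 31.8% for the 10 genes and 100.8% for all genes.

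The 7 CDK inhibitors were divided, with 4 higher and 3 lower in each fit and medians of 0.05 and 0.03. Without wild-type replicate 3, *Cdkn1a* alone had an unadjusted p under 0.05 in the lower direction, 1 of 7 where 8.58% of all genes did. *Cdkn1a*, which encodes p21, stood at 300.1, 290.3 and 82.2 CPM in wild type and at 226, 207 and 224 CPM in *Ythdf2*-/-, and was the 1 inhibitor of 7 with all 3 knockout libraries below wild-type replicates 1 and 2, where 20.1% of all genes were. *Cdkn2c*, an inhibitor of Cdk4 and Cdk6, stood at 95.5, 86.3 and 41.1 CPM and at 93.7, 93.9 and 90.4 CPM, with overlap in either fit. *Cdkn2b*, of the same family, stood at 11.04, 9.16 and 29.7 CPM and at 11.1, 8.89 and 9.17 CPM.

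Of the genes of cyclin D and E turnover, 4 of 11 were higher with 6 libraries, as were 6304 of all 13112 genes. Without wild-type replicate 3, 6 of 11 were higher, as were 6872 of all 13283 genes. In the latter fit 3 of 11 had an unadjusted p under 0.05 in the lower direction, where 8.58% of all genes did, and 0 in the higher direction. These were *Cks1b* (-0.64), *Skp2* (-0.46) and *Rbx1* (-0.29), components of SCF ubiquitin ligases or their cofactors, which are named here after their values were seen. *Skp1a*, the adaptor of SCF ubiquitin ligases, stood at 374, 392 and 388 CPM in wild type and at 331, 310.3 and 336 CPM in *Ythdf2*-/-. With wild-type replicate 3 in place, 2 of the 11, *Skp1a* among them, were lower in all 3 knockout libraries, against 4.92% of the genes tested. In the higher direction 1 of the 11, *Fbxo4*, did not overlap, against 5.24%. *Fbxo4*, an F-box protein linked to cyclin D1, stood at 7.62, 7.17 and 7.60 CPM and at 9.12, 7.85 and 9.82 CPM. None of the 3 subunits of the CDK-activating kinase had an unadjusted p under 0.05 in either fit, with *Cdk7* at 49.3, 50.8 and 70.7 CPM and at 54.3, 53.7 and 58.9 CPM, and *Mnat1* at 30.1, 32.2 and 29.4 CPM and at 28.8, 32.4 and 23.1 CPM.

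Of the mitogen receptors and Myc genes, which act before the D-type cyclins, 6 of 7 were tested. *Egfr*, the receptor for the EGF in the medium, stood at 456, 473 and 223 CPM in wild type and at 520, 683 and 678 CPM in *Ythdf2*-/-. It lay higher in all 3 knockout libraries than in any wild-type library, as did 5.24% of the genes tested. Its log2 fold change was 0.71 with 6 libraries (standard error 0.316) and 0.43 without wild-type replicate 3 (standard error 0.159). The adjusted p from edgeR was 0.999 and 0.265. Without wild-type replicate 3, *Egfr* and *Fgfr2* had an unadjusted p under 0.05 in the higher direction, 2 of 6 where 8.03% of all genes did, and 0 in the lower. *Fgfr2*, a receptor for fibroblast growth factors, stood at 36.5, 42.1 and 124 CPM in wild type and at 76.6, 61.6 and 51.2 CPM in *Ythdf2*-/-, where its log2 fold change was -0.10 with 6 libraries and 0.68 without wild-type replicate 3.

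**Figure D4:**
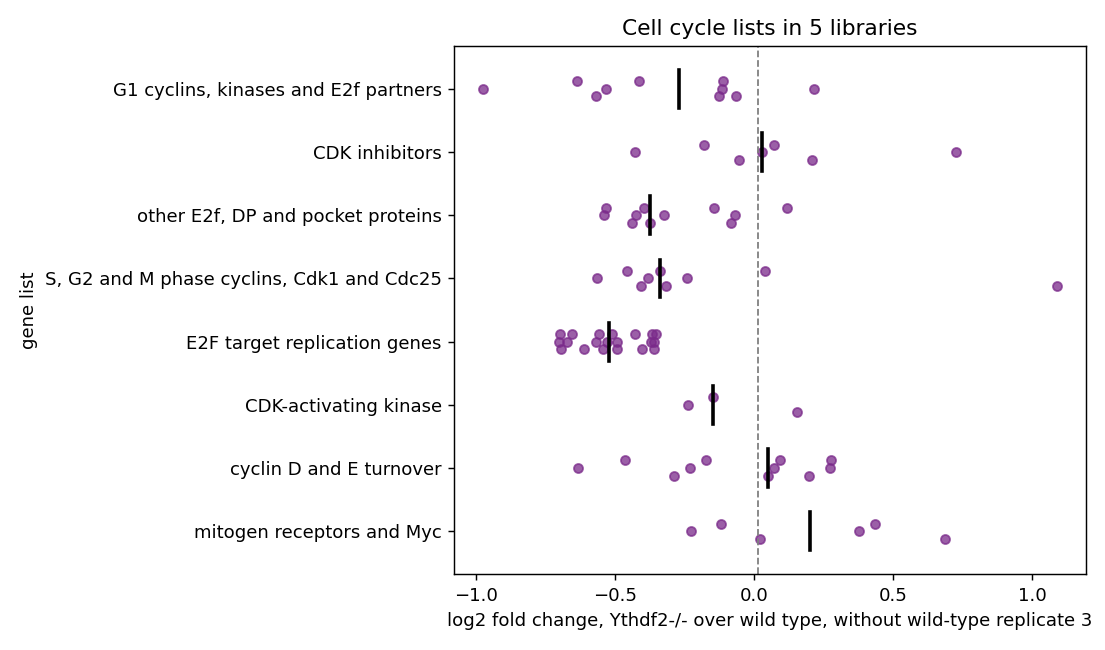
Log2 fold change without wild-type replicate 3 (horizontal axis) of each tested gene (points) in the 10 G1 genes and the 7 other lists, with list medians (black bars) and the median of all genes (dashed line, 0.01). All 20 E2F target replication genes lie below 0, with a median of -0.52, while the CDK inhibitors have a median of 0.03.

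Genes with the most similar profile over the 6 libraries were found for the 7 members that spanned more than 1 log2 unit, by the root mean square difference of centred log2 CPM. For *Ccnd1* they were *Cdc6* (0.165), *Spp1* (0.227) and *Exo1* (0.273). For *Ccne1* they were *Mcm6* (0.0688), *Fancb* (0.0715) and *Mms22l* (0.108). For *Cdk2* they were *Nup107* (0.0471), *Cdc25a* (0.0703) and *Ran* (0.0732). *Ccne1* and *Cdk2* thus had closer neighbours than *Ccnd1*, whose profile was the widest of the 10. The closest gene was *Etv4* for *Ccnd2* (0.0605), *Rpa2* for *Ccne2* (0.0901), *Adamts7* for *Cdk6* (0.179) and *Rab38* for *E2f1* (0.0668). These measures rest on 6 libraries, and the distance of wild-type replicate 3 from the others weighs heavily in them.

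A second table per library gives expected counts and FPKM for the same genes, at far lower depth. The expected counts summed to 1.97% to 2.40% of the raw counts, and those of the 10 genes ran from 0 to 116 with a median of 7.5. *Ccnd1* had 30, 27 and 35 expected counts in wild type and 33, 40 and 31 in *Ythdf2*-/-. *E2f1* had 31.2, 31.4 and 34.6 in wild type and 39.4, 41.8 and 48.4 in *Ythdf2*-/-. *Cdk6* had 13.5, 12.4 and 21.4 in wild type, and *Ccne2* had 107, 109 and 116. For these genes the low level of wild-type replicate 3 in the raw counts was not seen there. For *Ccnd1* and *E2f1* the knockout libraries lay above wild-type replicates 1 and 2, the opposite of the raw counts. *Ccnd2* had 3, 6 and 0 in wild type and 11, 9 and 5 in *Ythdf2*-/-, with wild-type replicate 3 lowest. *Ccne2* had 116 expected counts in wild-type replicate 3, more than its 34 raw counts. Which reads these tables were made from is not given in the sources used here, and the results on the 10 genes rest on the raw counts.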

How the data were processed

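RNA-seq of 3 wild-type and 3 *Ythdf2*-/- input samples was used. The 6 m6A-IP samples were not analysed here. The authors aligned reads to mm10 with TopHat, per the paper's methods, and the submitters' processing notes also name Bowtie2 2.2.9, RSEM 1.2.15 and featureCounts. The authors deposited raw counts per gene (whole reads, not normalized), and for each library a table of expected counts, FPKM and gene length (a length in bases, used for 1 alternative).

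From the counts, edgeR 4.0.16 in R 4.3.3 (TMM, filterByExpr, glmQLFit with the robust option, glmQLFTest) was fitted over all genes with genotype as the only term. P-values were adjusted by Benjamini-Hochberg over all genes tested, and intervals are 95% intervals from that fit. RPKM used the union of RefSeq exons in GRCm38.p6. DESeq2 1.42.0 and limma 3.58.1 were alternatives. Log2 CPM had a prior count of 2, and FPKM was tested as log2(FPKM + 1), which understates the change of low genes. Scripts were tested on simulated data, and Python 3.11.15 drew the figures.

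The members and lists were chosen with earlier results of these data known. The rule for named genes was the 10 members, *Ythdf2*, the genes nearest in profile, and from each list the gene with the highest mean CPM, those with the largest positive and negative log2 fold change, and any past an adjusted p of 0.05. *Oraov1*, *Bysl* and *Ints8* were named for overlapping exons. Marker genes were named as lists, and *Sox2*, *Nes*, *Pdgfrb*, *Gfap*, *Stmn2*, *Prom1*, *Msi1*, *Cspg4*, *Cks1b*, *Skp2* and *Rbx1* after their values were seen. The labels and the paper call the samples biological replicates without saying which embryos they came from, so p-values measure the spread between these samples. The depth of 11029827 to 13185778 counted reads puts 1 read at 0.0740 to 0.0915 CPM. The alternatives covered the test, normalization, filter, gene length, prior count, replicate block, Y-linked reads and each library left out.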

Additional observations from a re-analysis of the deposited data

How the results depend on the processing

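In all, 20 alternatives were planned and 2 were added after seeing the data, and the cause of each move below was not tested unless stated. Leaving out 1 library at a time gave log2 fold changes of -0.98 to 0.12 for *Ccnd1*, -0.17 to 0.80 for *Ccnd2*, -0.11 to 0.039 for *Ccnd3*, -0.64 to 0.22 for *Ccne1*, -0.57 to 0.15 for *Ccne2*, -0.53 to 0.058 for *Cdk2*, -0.15 to 0.20 for *Cdk4*, -0.26 to 0.58 for *Cdk6*, -0.41 to 0.58 for *E2f1* and -0.29 to 0.21 for *Rb1*. It gave 0 to 2 genes called lower, 247 to 2207 genes at an unadjusted p under 0.05, and 0 to 5 of the 10 genes at that level, the 5 without wild-type replicate 3. Without *Ythdf2*-/- replicate 3 *Ccnd2* was at -0.17, and without *Ythdf2*-/- replicate 2 *Cdk4* was at -0.15, *Cdk6* at -0.26 and *Ccnd3* at 0.02. Without wild-type replicate 1, *Ccnd1* was at 0.12, *Ccnd3* at 0.01, *Ccne1* at 0.22, *Ccne2* at 0.15 and *Cdk2* at 0.058, and without wild-type replicate 2, *Ccnd3* was at 0.039, *Ccne1* at 0.20, *Ccne2* at 0.03 and *Cdk2* at 0.01. Without wild-type replicate 3, *Ccnd2* was at -0.13, *Cdk4* at -0.12, *Cdk6* at -0.07, *E2f1* at -0.41 and *Rb1* at 0.21. Limma-voom turned *Ccnd1* to 1.06, *Ccne1* to 0.36 and *Ccne2* to 0.019. With sample quality weights, which gave wild-type replicate 3 a weight of 0.0901, *Ccnd2* was at -0.22, *Cdk4* at -0.24, *Cdk6* at -0.47, *E2f1* at -0.28 and *Rb1* at 0.28, with 333 genes called higher, 299 lower, 3921 at an unadjusted p under 0.05 and 2 of the 10 genes among the last. DESeq2 called 6 genes higher and 25 lower. DESeq2 size factors, the upper quartile, no filter and a minimum of 10 counts in every library each called 1 gene lower. A term for Y-linked reads with 6 libraries turned *Ccnd1* to 2.06, *Ccnd3* to 0.041, *Ccne1* to 0.83, *Ccne2* to 0.31 and *Cdk2* to 0.20, with 13 genes called lower and 1436 at an unadjusted p under 0.05, 1 of them, *Ccnd2* at 1.78, among the 10. Without wild-type replicate 3 that term gave *Cdk4* -0.42, *Cdk6* -0.64, *E2f1* -0.30 and *Rb1* 0.038, with 1807 genes and 3 of the 10 at an unadjusted p under 0.05. For the knockout, the genotype term of that Y-linked fit rests on *Ythdf2*-/- replicate 3 alone, so no conclusion is drawn from its counts. DESeq2 without wild-type replicate 3 gave *Ccnd1* -0.97, *Ccnd2* -0.12, *Ccne1* -0.63, *Cdk2* -0.53, *Cdk4* -0.11, *Cdk6* -0.071, *E2f1* -0.41 and *Rb1* 0.21, with 154 genes called higher, 200 lower and 3 of the 10 called, and 1925 genes and 4 of the 10 at an unadjusted p under 0.05. Limma on the deposited FPKM gave *Ccnd1* 0.17, *Cdk2* 2.67 and *Cdk6* -0.10, called 2 genes lower and had 1 of the 10, *Cdk2*, at an unadjusted p under 0.05. *Cdk2* has 0 expected counts in all wild-type libraries there and 2 to 7 in *Ythdf2*-/-.

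The deviations of same-numbered samples from their group means correlated at -0.25, -0.24 and -0.39, and those of other pairs at -0.19 to 0.40. With 3 samples in a group and wild-type replicate 3 far from the rest, these values cannot tell whether the replicate numbers pair the samples. With the replicate number as a block *Ccnd1* was at 0.33, *Ccne1* at 0.31 and *Ccne2* at 0.026, and 183 genes had an unadjusted p under 0.05. With gene lengths from the deposited tables *Ccnd3* moved to 19.5 RPKM in wild type and 19.2 in *Ythdf2*-/-, and *Cdk2* and *E2f1* to 17.9 and 7.51 RPKM in *Ythdf2*-/-. With a prior count of 0.5, *Ccnd1* shared 0 of its 3 nearest genes with those given, *Ccnd2* 1, *Cdk2* and *E2f1* 2 each, and *Ccne1*, *Ccne2* and *Cdk6* all 3.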
